A study of Mus musculus with 6 samples.

Results

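The oligoadenylate synthetase (Oas) genes described here are Oas1a, Oas1g, Oas2, Oas3, Oasl1 and Oasl2. They were taken by symbol from the deposited count tables, and all 6 were present among the 16533 genes listed. The tables come from mouse inferior vena cavae 24 h after the vein was tied off, a deep vein thrombosis model: blood flow stops and a thrombus forms. Control mice were Stingf/f, carrying a loxP-flanked Sting1 gene and no Cre, whereas the genotype of mKO mice was Stingf/f Lyzm-Cre+/-, carrying the same floxed gene and a copy of Cre under the lysozyme M (Lyz2) promoter. That Cre is active in neutrophils, monocytes and macrophages, so cells of the vessel wall and lymphocytes keep Sting1 in both groups. Each library was made from polyadenylated RNA of 3 thrombi with the vein around them, mixed into a pool, and each group has 3 libraries. The sources used here do not give age, sex or strain background. The question put to the design is which genes respond in the thrombosed vein when myeloid cells lack STING, an adaptor that acts downstream of the DNA sensor cGAS.

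Oligoadenylate synthetases are interferon-induced enzymes that bind double-stranded RNA and join ATP into 2-5A, short chains of adenylate with 2'-5' links. 2-5A is a second messenger of the antiviral response that leads to the breakdown of viral and cellular RNA. STING leads through TBK1 and IRF3 to type I interferon, whose receptor activates transcription factors, STAT2 and IRF9 among them, that turn on the Oas genes in nearly all cell types. Oas1, Oas2 and Oas3 proteins differ in how many synthetase units they hold. The Oasl proteins add ubiquitin-like domains; mouse Oasl1 lacks synthetase activity and restrains translation of Irf7, whereas Oasl2 keeps the activity.

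All 6 genes lie on chromosome 5, Oas1a, Oas1g, Oas2 and Oas3 in a shared run with further Oas1 copies, and Oasl2 and Oasl1 close together elsewhere. Promoter sequences from RefSeq (build GRCm38.p6, an earlier build than the GRCm39 named for the counts) were found for 5 of the 6 members, not for Oas2. The 250 bases before each start were searched on both strands for GAAA, any 2 bases and GAAA again (on the other strand TTTC, any 2 bases, TTTC), the core of the interferon-stimulated response element that interferon-activated transcription factors bind. It was present in 3 of the 5, Oas1a, Oas1g and Oas3, and in 2.98% of 32851 mouse promoter windows of the same length. The 90 bases before the start of these 3 genes are shown 5′ to 3′ in the direction of the gene, to let the element be compared between the 2 near-identical Oas1 copies and Oas3; capitals mark bases inside a match.
Oas1a, chr5:120907526-120907615, minus strand: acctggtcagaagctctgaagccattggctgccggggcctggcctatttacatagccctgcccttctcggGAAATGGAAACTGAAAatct
Oas1g, chr5:120887614-120887703, minus strand: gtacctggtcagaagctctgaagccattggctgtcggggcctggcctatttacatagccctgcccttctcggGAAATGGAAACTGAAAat
Oas3, chr5:120777660-120777749, minus strand: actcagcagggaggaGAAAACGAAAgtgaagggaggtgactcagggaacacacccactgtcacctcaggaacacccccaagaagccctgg
Oas1a and Oas1g each held 2 overlapping matches, starting at -20 and -14 in Oas1a and at -18 and -12 in Oas1g, where -1 is the base before the start. Oas3 held 1 match, starting at -75. Aligned over 250 bases, the Oas1a and Oas1g promoters were 82.8% identical, and their coding sequences were 96.7% identical over 1101 bases. The windows of Oasl1 and Oasl2 held no match, which says only that these letters are not in those windows.

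The 6 libraries held 158579864 to 180068483 counts, and a member had at least 1108 counts in every library, so the spread between pools and not counting error limits the values. Levels are CPM, the deposited counts scaled to a library of common size, with sizes adjusted by TMM for differences in composition. Globin transcripts took 21.2% to 27.1% of the counts, and markers of endothelium, smooth muscle, red cells and platelets, the parts of a vein with its thrombus, were all present. mKO library 3 stood apart from the others on the first principal component, which held 46.9% of the variance. Its skeletal muscle markers summed to 164.6 CPM, beside 2.96 to 45.1 CPM in the other libraries. Its sympathetic neuron markers summed to 4.48 CPM, beside 77.3 to 261.0 CPM. The part of these differences in the Oas values was not tested. The targeted gene Sting1 had a mean of 27.9 ± 3.21 CPM in control libraries and 24.3 ± 3.87 in mKO libraries (SD, n = 3 per group; edgeR adjusted p = 0.579), in RNA of all cells of the vein together. Nothing in the labels says whether pools came from separate litters or days, so p-values measure the spread between pools. In bulk tissue, fewer cells of a type and less RNA per cell cannot be told apart.

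All 6 members had lower mean levels in mKO than in control, by 1.83-fold for Oas3 to 2.90-fold for Oas1g, but none passed the test. By edgeR quasi-likelihood, 0 of the 6 had an adjusted p under 0.05 over all 16523 genes tested, where 0% of all genes passed. The adjusted p was lowest for Oas1g, 0.246, and highest for Oasl1, 0.461. At an unadjusted p under 0.05 there were 4 members, Oas1g, Oas1a, Oas2 and Oasl2, all lower, against 6.26% of all genes in that direction. For 5 members every mKO library lay below every control library, against 9.39% of all genes, and Oas3 was the exception. The median log2 fold change of the members was -0.94, beside -0.03 over all genes tested. DESeq2 called 2 members lower, Oas1g and Oas1a, against 1.37% of all genes in that direction, and limma voom called 0 (0% of all genes), with 4 members at an unadjusted p under 0.05.

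**Figure D1:**
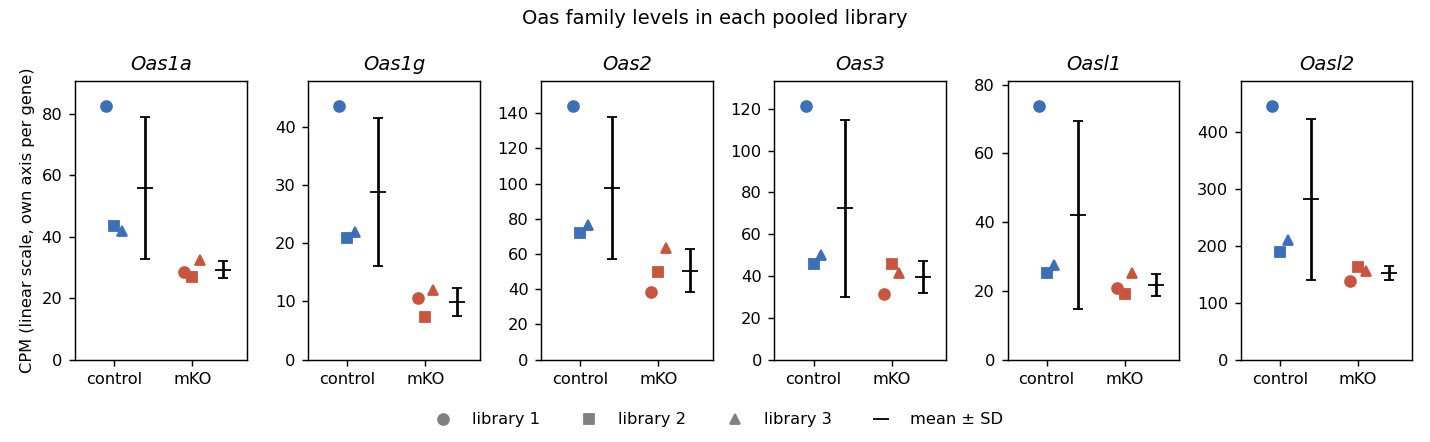
CPM (vertical axis, linear, with its own scale for each gene) of the 6 Oas genes in control and mKO libraries; each symbol is a pooled library, and bars give the mean and SD of 3. Control library 1 is the highest library for every gene, and the remaining control libraries lie much closer to the mKO libraries.

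Oas1a, an active synthetase of the small Oas1 class, had 82.5, 43.4 and 41.8 CPM in control libraries 1 to 3 and 28.4, 27.0 and 32.3 CPM in mKO libraries 1 to 3. The groups did not overlap, and control library 1 stood far above the rest. Its log2 fold change was estimated at -0.94 (SE 0.27), and edgeR gave an adjusted p of 0.312. DESeq2 gave -0.92 (SE 0.28) and an adjusted p of 0.0385.

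Oas1g, its nearest copy, had 43.5, 20.8 and 22.0 CPM in control and 10.5, 7.25 and 12.0 CPM in mKO. The lowest control library was well above the highest mKO library. The log2 fold change of -1.53 (SE 0.34) was the largest of the 6, and edgeR gave an adjusted p of 0.246 and 4.92e-04 by DESeq2. The counts behind these levels ran from 1108 to 7985. Near-identical copies can exchange reads: of the 150-base stretches in the coding transcripts, 32.4% in Oas1a and 30.1% in Oas1g occurred in the other gene as well. For 75-base stretches these shares were 47.6% and 44.6%. The other 4 members shared no stretch of either length with any other gene. The sources used here do not say how reads matching several genes were counted.

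Oas2, which holds repeated synthetase units, had 144.0, 72.0 and 76.8 CPM in control and 38.5, 49.9 and 63.3 CPM in mKO. Both groups stood apart, with a log2 fold change of -0.95 (SE 0.31) and its edgeR adjusted p was 0.342. Oas3, the largest member and known in human cells as the main source of 2-5A after viral infection, had 121.2, 45.7 and 50.3 CPM in control and 31.2, 46.0 and 41.4 CPM in mKO. Control library 2 was below mKO library 2, so the groups overlapped, and the log2 fold change of -0.87 (SE 0.41) came with an edgeR adjusted p of 0.460.

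Oasl1, the member without synthetase activity, had 73.7, 25.1 and 27.5 CPM in control and 20.9, 19.0 and 25.1 CPM in mKO. Control library 2 exceeded mKO library 3 by less than the rounding of these values, so the lack of overlap was marginal; with size factors by the RLE method the groups overlapped. The log2 fold change was -0.96 (SE 0.44), and edgeR gave an adjusted p of 0.461. Oasl2, the most abundant member, had 444.9, 189.7 and 210.8 CPM in control and 138.6, 162.0 and 155.4 CPM in mKO. Its groups did not overlap, and the log2 fold change was -0.89 (SE 0.32), and edgeR gave an adjusted p of 0.371. An exact two-sided permutation test gave p = 0.1 for the 5 members without overlap, the smallest that 3 against 3 allows, and p = 0.2 for Oas3.

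Control library 1 was the highest library for every member. It exceeded the mean of control libraries 2 and 3 by 1.94-fold for Oas1a and Oas2 to 2.80-fold for Oasl1. The mean of control libraries 2 and 3 in turn exceeded the mKO mean by 2.15-fold for Oas1g, 1.47-fold for Oas2, 1.46-fold for Oas1a, 1.32-fold for Oasl2 and 1.21-fold for both Oas3 and Oasl1. Without control library 1 the median log2 fold change of the members was -0.47 in place of -0.94. Oas1g then had -1.11, Oas2 -0.56, Oas1a -0.54, Oasl2 -0.40, and Oas3 and Oasl1 -0.28 each. All 6 stayed below 0 on leaving out each library in turn, and none had an adjusted p under 0.05 by edgeR quasi-likelihood. In these fits 2 to 6 members had an unadjusted p under 0.05, against 1090 to 2370 of 16525 to 16528 genes in either direction. The lowest edgeR adjusted p was 0.183, for Oas1g without control library 1.

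**Figure D2:**
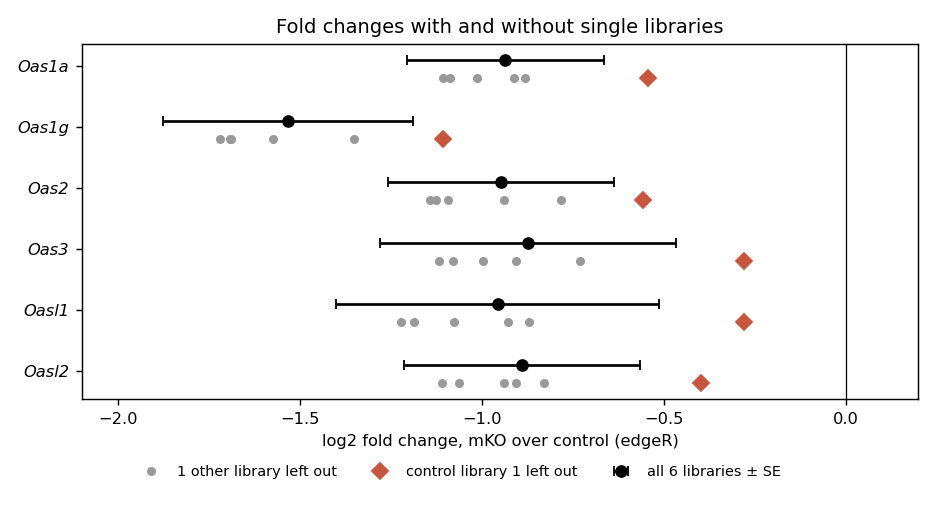
Log2 fold change of mKO over control (horizontal axis) for each Oas gene (rows); black points with bars are the fit of all 6 libraries with its SE, grey points the fits without a single other library, and red diamonds the fit without control library 1. Every point is below 0, the diamond is the nearest to 0 in each row, and Oas1g is the gene furthest below 0 at -1.53.

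Oas1g had the largest fold change, and ratios between members within a library restate this from the same libraries, without library scaling. They were computed for all 15 pairs. The 5 pairs with Oas1g had groups that did not overlap, and the 10 pairs without it overlapped. The 5 share Oas1g, so they do not count as separate observations. Oas1g over Oas1a was 0.527, 0.479 and 0.526 in control and 0.371, 0.269 and 0.371 in mKO. Control library 1, far above the rest in level, was no outlier in this ratio. It was the lowest control library in the ratios to Oas3, Oasl1 and Oasl2. Some margins were thin: for Oas3 control library 1 had 0.359 and mKO library 1 had 0.337. For Oas2 the lowest control ratio was 0.286 and the highest mKO ratio 0.274. The mean log2 ratio in mKO minus that in control was -0.61 (SE 0.16), with an exact permutation p of 0.1. Against Oas2 the difference was -0.58 (SE 0.27), against Oasl1 -0.70 (SE 0.20), against Oasl2 -0.70 (SE 0.26) and against Oas3 -0.74 (SE 0.35), each with an exact permutation p of 0.1. Adjusted over the 15 pairs, these exact permutation p-values were 0.3, and 3 against 3 libraries cannot give a lower raw p. In the 10 pairs without Oas1g the difference ran from -0.16 to 0.04. Of all genes tested other than Oas1a, 5 of 16522 (0.0303%) had a ratio to Oas1a without overlap and lower in mKO. Oas1g is among these 5. Oas1a was itself lower in mKO, which makes such ratios rare. The share was not computed for ratios to the other members. Oas1a and Oas1g can exchange reads, which touches both sides of their ratio and the Oas1g side of the other 4.

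**Figure D3:**
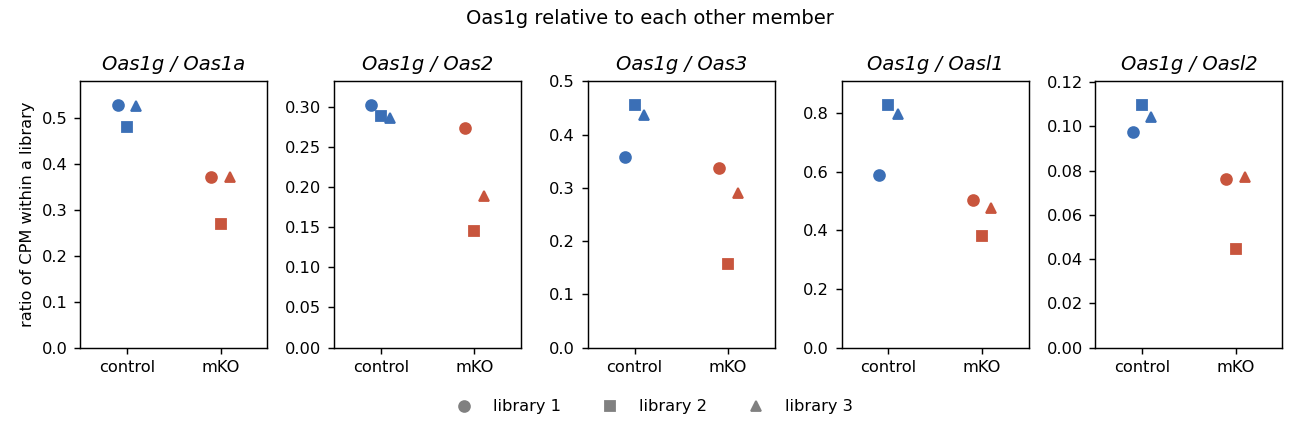
Ratio of Oas1g CPM to the CPM of each other member within a library (vertical axis, linear from 0, own scale per panel) in 3 control and 3 mKO libraries. In every panel the control libraries lie above the mKO libraries; for Oas1a the control ratios are 0.479 to 0.527 and the mKO ratios 0.269 to 0.371.

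To compare levels between genes, CPM was divided by the total exon length of each gene in GENCODE M21. On this scale of CPM per kb, Oasl2 was highest, with 44.2 ± 22.2 in control and 23.8 ± 1.89 in mKO (SD, n = 3 each). Oas1a followed with 29.6 ± 12.2 in control, then Oas2 with 21.9 ± 9.04, Oasl1 with 16.2 ± 10.5, Oas1g with 12.3 ± 5.45 and Oas3 with 10.2 ± 5.99 (SD, n = 3 each). Neighbours in this order overlapped in their SD across control pools. Within libraries the order of Oasl2, Oas1a, Oas2, Oasl1 and Oas1g held in all 6. Oas1g was above Oas3 in 3 control libraries and in 1 mKO library. Oasl2 ranked 814th of 16480 genes by mean CPM per kb in control and 1545th in mKO, and Oas1g moved from 2699th to 5869th. Oasl2 made up 47.2% to 52.1% of the summed CPM of the family by library. Oas1g made up 4.78% to 5.24% of it in control and 2.33% to 3.93% in mKO.

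The further Oas1 copies were expressed at lower levels. Oas1b, the flavivirus resistance gene of mice, had 7.61, 5.14 and 5.51 CPM in control and 4.23, 3.12 and 3.98 CPM in mKO. Its log2 fold change was -0.69 (SE 0.20), and edgeR gave an adjusted p of 0.307. Oas1c had 3.88, 2.70 and 3.06 CPM in control and 2.23, 2.02 and 2.27 CPM in mKO, with a log2 fold change of -0.56 (SE 0.19) and its edgeR adjusted p was 0.347. For both genes the groups did not overlap, mKO being lower, as in 9.39% of all genes. Other Oas1 copies (Oas1d, Oas1e, Oas1f and Oas1h) were not analysed here.

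Genes that lie beside the Oas genes on chromosome 5 but are not of the family were measured for comparison. There were 13 such neighbours, the nearest 3 measured genes on each side of both runs and Gm13822 between Oasl2 and Oasl1. Of these, 0 had mKO libraries all below the control libraries and 1, Sppl3, had them all above. Over all genes these shares were 9.39% and 8.76%. With 13 genes, counts of 0 and 1 do not set the neighbours apart from all genes. The median log2 fold change of the neighbours was -0.10, with a range from -0.49 for Dtx1 to 0.50 for Rasal1, a gene of under 1 CPM. Gm13822 had 3.17 CPM in control library 1 and 1.21 to 1.93 CPM in the other 5 libraries. Strand is not given, so reads of this gene and of the Oasl genes beside it cannot be told apart where they overlap.

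Genes linked to the breakdown of 2-5A or to its action had small differences and overlapping groups. Abce1, a ribosome recycling factor, had a log2 fold change of -0.14 (SE 0.12), Pde12, a phosphodiesterase that degrades 2-5A, 0.05 (SE 0.10), and Akap7, which has a related activity, -0.21 (SE 0.19). Of these 3, 0 had an unadjusted p under 0.05 by edgeR or an adjusted p under 0.05 by DESeq2.

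Among 19 measured genes of interferon production and receptor signalling, 0 passed an adjusted p of 0.05 by edgeR, 3 lower and 5 higher genes had an unadjusted p under 0.05 (6.26% lower and 5.6% higher of all genes), and DESeq2 called 1 in each direction (1.37% lower and 1.51% higher of all genes). The groups did not overlap for 4 lower and 6 higher genes, against 9.39% lower and 8.76% higher of all genes, and the median log2 fold change was 0.14. Irf7, the interferon-induced factor that amplifies type I interferon and that Oasl1 restrains, had 257.1, 143.8 and 120.5 CPM in control and 98.9, 68.2 and 89.3 CPM in mKO. Its log2 fold change was -1.02 (SE 0.30), close to that of most Oas members, and edgeR gave an adjusted p of 0.312 and 0.0269 by DESeq2. Without control library 1, its highest library, the log2 fold change was -0.63. The other lower genes without overlap, named after their values were seen, were Usp18 (-0.89), which limits receptor signalling, Stat2 (-0.63) and Irf9 (-0.39), which act together below the type I interferon receptor. The 6 higher ones were receptor chains and kinases, with Irf3 beside them. Ifngr2, of the interferon gamma receptor, had 107.9, 99.6 and 109.0 CPM in control and 133.4, 132.1 and 133.1 CPM in mKO, with a log2 fold change of 0.33 (SE 0.11) and an adjusted p of 0.0270 by DESeq2. Ifnar1, a chain of the type I interferon receptor, had 74.8, 61.7 and 69.2 CPM in control and 90.9, 85.9 and 84.6 CPM in mKO, with a log2 fold change of 0.35 (SE 0.12) and an edgeR adjusted p of 0.345. The rest, also named after their values were seen, were Jak2 (0.41), Ifnar2 (0.27), Irf3 (0.25) and Tyk2 (0.21). Jak1, the most abundant gene of the list, had 0.22 (SE 0.18) and overlapping groups. Ifnb1 and Ifng, which encode interferons themselves, were not analysed here.

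Other sensors of double-stranded or Z-form nucleic acid, with the adaptor Mavs, also had lower means in mKO. All 8 measured genes had a log2 fold change below 0, beside 54.1% of all genes, with a median of -0.59. The groups did not overlap for 4 of them, all lower, against 9.39% of all genes. By edgeR 0 passed an adjusted p of 0.05, and 5 were lower at an unadjusted p under 0.05, against 6.26% of all genes. Ifih1, which encodes the RNA sensor MDA5, had -0.72 (SE 0.19), Eif2ak2, the kinase PKR, -0.65 (SE 0.20), Zbp1 -0.96 (SE 0.30) and Ddx58, which encodes RIG-I, -0.47 (SE 0.21). DESeq2 called 1 gene lower, Zbp1, with an adjusted p of 0.0466, against 1.37% of all genes.

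In the Ifit family, which binds viral RNA ends and blocks translation, 5 of 6 genes were below 0, with a median of -0.92, beside -0.94 for the Oas members. For 4 of them the mKO libraries all lay below the control libraries, against 9.39% of all genes. Ifit2 had 53.5, 50.2 and 41.5 CPM in control and 30.0, 32.1 and 25.4 CPM in mKO, with control libraries 1 and 2 at similar levels. Its log2 fold change was -0.73 (SE 0.14), and the adjusted p was 0.188 by edgeR and 0.00173 by DESeq2. Ifit1 had -1.05 (SE 0.31), with an adjusted p of 0.0253 by DESeq2. These were the 2 of the 6 genes that DESeq2 called, against 1.37% of all genes called lower. Ifit3 had -1.14 (SE 0.42) and Ifit1bl1 -0.80 (SE 0.22). Of 19 other interferon-stimulated genes, 18 were below 0 and the median was -0.61. The groups did not overlap for 11 lower and 1 higher, against 9.39% lower and 8.76% higher of all genes. Xaf1 had -1.06 (SE 0.23) and Lgals3bp -0.73 (SE 0.15), with DESeq2 adjusted p-values of 0.00307 and 6.96e-04. They were the 2 genes of this list called by DESeq2, against 1.37% of all genes called lower. Rtp4 had -0.88 (SE 0.28), and the higher gene, Isg20, had 0.41 (SE 0.15).

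Control library 1 was also the highest library for 6 of the 8 sensors, 6 of the 6 Ifit genes and 14 of the 19 other interferon-stimulated genes. It was highest for 6 of the 19 signalling genes and 0 of the 3 genes linked to 2-5A. The share over all genes was not computed. Without control library 1 the median log2 fold change was -0.40 for the sensors, -0.68 for the Ifit genes and -0.39 for the other interferon-stimulated genes. That of the Oas members was -0.47. Below 0 were then 8 of the 8 sensors, 5 of the 6 Ifit genes and 16 of the 19 other interferon-stimulated genes, against 18 of these 19 with all libraries. Rtp4 then had -0.47, Zbp1 -0.61, Eif2ak2 -0.42 and Ifih1 -0.48, whereas Ifit2 had -0.65 and Lgals3bp -0.72. No difference between these lists and the Oas members was tested.

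**Figure D4:**
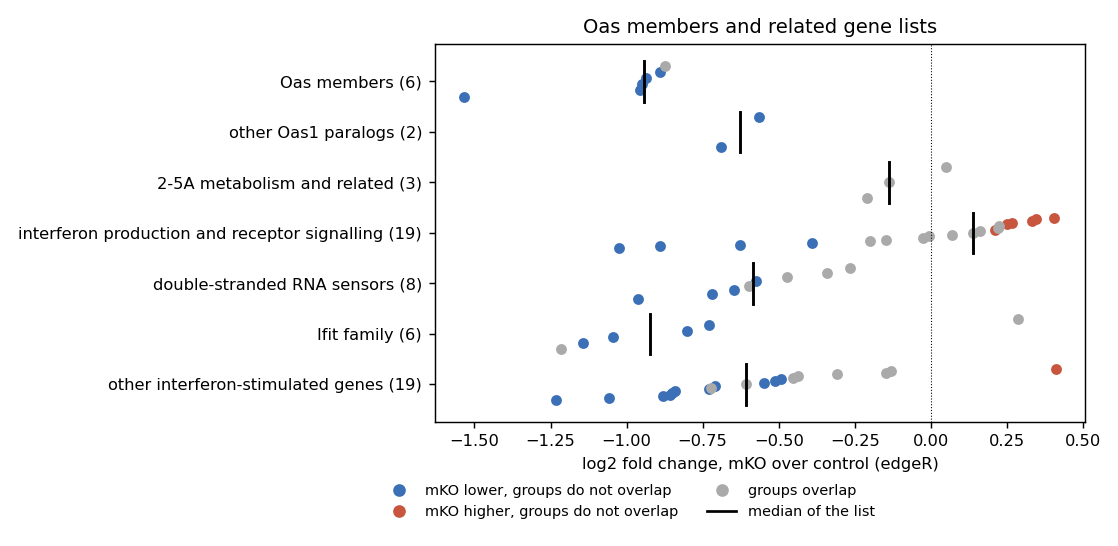
Log2 fold change of mKO over control (horizontal axis) of single genes in the Oas family and related lists (rows, with the number measured); colour gives whether the 3 mKO libraries all lie below or above the 3 control libraries, and black bars are list medians. The Oas members lie between -1.53 and -0.87, the genes linked to 2-5A around 0, and the signalling genes on both sides of 0.

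Across libraries the members ran closely together, with Pearson r between pairs from 0.80 to 0.98 on log2 CPM over 6 libraries, which share control library 1 as their highest value. The genes most like the mean profile of the family, of 13888 genes with a mean of at least 1 CPM, were Slfn8 (r = 0.99), a Schlafen gene, Ddx60 (0.99), a helicase, Parp9 (0.99), Rtp4 (0.98) and Ogfr (0.98), each over 6 libraries. Slfn8 had 84.3, 41.2 and 44.2 CPM in control and 32.7, 32.8 and 38.0 CPM in mKO. After group means were subtracted, the most alike were Slfn8 (r = 1.00), Swap70 (0.99), Ddx60 (0.99), Ogfr (0.99) and Sp100 (0.99), a measure that rests mainly on control library 1. Among these, Swap70 alone had a higher mKO mean, with a log2 fold change of 0.26 (SE 0.16).

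Markers of some cell types differed between the groups beside these genes, and their part in the Oas values was not tested. Ptprc, the pan-leukocyte gene CD45, ran from 209.6 to 248.0 CPM in control and from 268.5 to 377.4 CPM in mKO, without overlap. Among the control libraries it was highest in library 1, as the Oas genes were. The summed level of 9 of 9 monocyte and macrophage markers was 1158 to 1463 CPM in control and 1296 to 1936 CPM in mKO, and that of 8 of 8 neutrophil markers 9640 to 15805 CPM and 13712 to 19077 CPM, both with overlap. Both sums were also highest in library 1 among the controls. Taken singly, 2 of these 9 and 1 of these 8 genes were higher in mKO without overlap, against 8.76% of all genes. They were Csf1r (0.32, SE 0.14) and Cd68 (0.60, SE 0.15), and Mmp9 (0.79, SE 0.25). In both lists 0 genes were lower without overlap. The summed level of 7 of 7 endothelial markers was 730.2 to 861.9 CPM in control and 532.5 to 677.5 CPM in mKO, without overlap, and none of them was at 0. Taken singly, 3 of these 7 genes were lower without overlap, against 9.39% of all genes, and the rest overlapped. For 3 of 3 adipocyte markers the sum was 578.5 to 698.4 CPM in control and 311.8 to 458.8 CPM in mKO, again without overlap. Most of that sum was Fabp4, a fatty acid binding protein, with means of 551.5 CPM in control and 355.4 CPM in mKO. Fabp4 had -0.63 (SE 0.19) and a DESeq2 adjusted p of 0.0226. It was the 1 of these 3 genes lower without overlap, against 9.39% of all genes. Adipoq (-0.42, SE 0.28) and Plin1 (-0.41, SE 0.24) had overlapping groups. For 10 of 11 T and NK cell markers the sum was 18.6 to 37.1 CPM in control and 15.9 to 19.0 CPM in mKO, with overlap. The cytotoxic granule genes Nkg7 and Gzmb were the 2 of these 10 genes lower without overlap, against 9.39% of all genes. Their log2 fold changes were -1.20 (SE 0.32) and -1.68 (SE 0.31). For 6 of 7 markers of plasmacytoid dendritic cells, known producers of type I interferon, the sum was 115.7 to 146.4 CPM in control and 82.2 to 131.5 CPM in mKO, with overlap, and their median log2 fold change was 0.02. Within that sum Bst2, also an interferon-stimulated gene, had means of 61.2 CPM in control and 40.1 CPM in mKO, whereas Siglech had 0.714 and 0.688 CPM and Tcf4 45.2 and 45.9 CPM. Csf1r, Cd68, Mmp9, Fabp4, Adipoq, Plin1, Nkg7, Gzmb, Bst2, Siglech and Tcf4 were named after their values were seen.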

How the data were processed

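The files the authors deposited hold a raw count for every gene, with 1 table for each of the 6 libraries. The submitters' processing notes name, without roles, HISAT2 2.1.0, featureCounts 2.0.1, FastQC 0.11.8, Trim Galore 0.4.0 and build GRCm39. Annotation release, strand and multi-mapping rule: not given in the sources used here. Counts were tested with edgeR 4.0.16 (quasi-likelihood F-test, TMM, robust dispersion, default expression filter; 16523 genes) in R 4.3.3, with Benjamini-Hochberg adjustment over all genes tested and a threshold of 0.05. DESeq2 1.42.0, limma 3.58.1 (voom), other scalings and filters, a replicate block and leaving out libraries were alternatives. Log2 CPM used a prior count of 2. The scripts were tested on simulated data. Named genes were the members, all 2-5A genes, from each other list up to 3 with the smallest p and the most abundant gene, and the 5 most alike by each likeness measure. Members and lists were chosen with earlier results of these data known. Some list genes are not reported here and were left out of the list counts, medians and figure. Whether replicate numbers pair the samples could not be decided, and no libraries of a group agreed within sampling noise. Transcripts and exon lengths are from GENCODE M21, promoters from RefSeq GRCm38.p6. Group labels came from the sample titles and genotypes.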

Additional observations from a re-analysis of the deposited data

How the results depend on the processing

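All 6 members had a log2 fold change below 0 in each of the 17 alternatives run, 102 values in all, of which 2, both by DESeq2, had an adjusted p under 0.05. The alternatives re-use the same libraries, so these values are not independent of each other. DESeq2 called 466 genes, 2 of them members, where edgeR called 0 of either. Leaving out each library gave 0 to 7 called genes by edgeR and 0 called members. The family median ran from -1.12 to -0.47 there, and 4 to 6 members had groups that did not overlap. The share of all genes without overlap was not computed for these fits, and with fewer libraries groups separate more readily. Without both mKO library 3 and control library 1, an alternative added after seeing the data, 21 genes and 0 members were called, and the median was -0.52. With the replicate block the median was -0.82 and the smallest adjusted p of a member was 0.412 by edgeR. In that fit 2 members and 1299 genes had an unadjusted p under 0.05 by edgeR, and 0 genes were called. Deviations of same-numbered libraries from their group means had r of -0.14, -0.15 and -0.27, beside -0.09 to 0.24 for the other pairs. Deviations within a group of 3 sum to 0, so these values cannot show whether the numbers pair the samples. The medians of the related gene lists without control library 1 were also added after seeing the data. Precision is limited by the 3 pools in each group, not by depth.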

Other observations

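Ifit1bl2 was the Ifit gene with a log2 fold change above 0. It had 14.6, 4.73 and 4.66 CPM in control and 9.96, 8.44 and 10.9 CPM in mKO, so control library 1 was its highest library, as for the Oas genes, whereas control libraries 2 and 3 were below every mKO library. Its log2 fold change was 0.29, and 1.06 without control library 1. Isg20, an interferon-induced exonuclease, had 164.1, 130.6 and 135.2 CPM in control and 196.8, 205.9 and 168.5 CPM in mKO, without overlap.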
